A study of Mus musculus with 4 samples.

Results

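Cd209a conventional dendritic cells type 2 of the mouse nasal mucosa were chosen by their raw transcript counts (UMIs, unique molecular identifiers). A member had at least 500 UMIs, at least 200 genes and under 10% mitochondrial UMIs, at least 2 UMIs of Cd209a and at least 1 of Flt3 or Zbtb46. It had no UMI of Xcr1, Clec9a, Cd3e, Cd79a, Cxcr2 or Siglech, fewer than 3 of Ccr7 and Fscn1 together, and fewer than 2 of C1qa, C1qb and C1qc together. Of 79132 deposited cells, 72320 passed the first 3 limits, and 383 of these were members: 154 in Vehicle, 30 in Vehicle-OVA, 158 in Ribavirin and 41 in Ribavirin-OVA. The 4 groups were 1 library each of CD45+ nasal cells of C57BL/6 mice of 8 weeks. They crossed the antiviral drug ribavirin or its vehicle with OVA, ovalbumin, the allergen of the study's allergic rhinitis model, in which mice are sensitized with OVA and alum and then challenged through the nose, or with no OVA. Magnetic beads were named for the CD45 enrichment in the labels and fluorescence sorting in the series text, and the number of mice per library was not stated. With 1 library per group no test across samples was run, so intervals below are exact 95% counting intervals that cover counting error only, and a fold past 2 is a rule of size.

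Conventional dendritic cells are the antigen-presenting cells that take up material in a tissue and prime T cells. They arise under Flt3 signalling and carry the transcription factor Zbtb46. Type 1 cells carry Xcr1 and Clec9a and cross-present antigen to CD8 T cells, while type 2 cells, the cDC2, mainly present to CD4 T cells on MHC class II and are known for starting type 2 responses to allergens. Cd209a and Mgl2 are C-type lectins that mark a cDC2 subset, Ccl17 and Ccl22 are chemokines that draw Ccr4-bearing type 2 and regulatory T cells, Ccl24 draws eosinophils through Ccr3, and Cxcl9 and Cxcl10 are interferon-induced chemokines that draw Cxcr3-bearing T cells.

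The chemokine genes Ccl17, Cxcl9 and Cxcl10 were among the 12 genes lowest with OVA described below, and the 250 bases before their start sites (RefSeq, GRCm38.p6) are shown to set their promoters side by side. Capitals mark matches to any of 3 motifs searched on both strands: the STAT6-type site (TTC and GAA with 4 bases between them), the gamma-activated site (TTC and GAA with 3 bases between them) and the interferon response element (GAAA and GAAA with 2 bases between them). No match of one overlapped a match of another.
Ccl17, chr8:94810203-94810452, plus strand: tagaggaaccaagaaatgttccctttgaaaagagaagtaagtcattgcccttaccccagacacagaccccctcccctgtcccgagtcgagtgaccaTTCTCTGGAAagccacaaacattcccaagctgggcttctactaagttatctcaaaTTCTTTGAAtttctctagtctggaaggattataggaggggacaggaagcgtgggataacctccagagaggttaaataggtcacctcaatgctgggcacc
Cxcl9, chr5:92328080-92328329, minus strand: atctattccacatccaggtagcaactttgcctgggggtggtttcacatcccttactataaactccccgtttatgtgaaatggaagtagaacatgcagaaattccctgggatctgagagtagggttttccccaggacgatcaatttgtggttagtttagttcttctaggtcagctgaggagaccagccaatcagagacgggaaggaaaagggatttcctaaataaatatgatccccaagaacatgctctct
Cxcl10, chr5:92348890-92349139, minus strand: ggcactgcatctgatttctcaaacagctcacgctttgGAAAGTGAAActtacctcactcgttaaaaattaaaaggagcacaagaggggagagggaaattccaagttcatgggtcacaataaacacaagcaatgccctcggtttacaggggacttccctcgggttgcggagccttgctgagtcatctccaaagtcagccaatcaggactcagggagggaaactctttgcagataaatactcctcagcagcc
The Ccl17 promoter held 1 STAT6-type match, which began 154 bases before the start site, and 1 gamma-activated match 99 bases before it. The Cxcl10 promoter held 1 interferon response element, 213 bases before the start site, and the Cxcl9 stretch held none of the 3 sets of letters. Among 32851 promoters of the same length, 5.85% held the first motif, 7.02% the second and 2.98% the third, and a match is a description of letters only. Ccl24 and Ccl2, further chemokines of that comparison, are named without a sequence.

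The members' summed depth was 1628994 UMIs in Vehicle, 420081 in Vehicle-OVA, 1709197 in Ribavirin and 602393 in Ribavirin-OVA. Their median depth was 9805, 13958, 10475 and 14319 UMIs per cell in the same order, so the members of both OVA libraries were deeper, against 3432.5 to 5131.5 UMIs over all passing cells. Median mitochondrial shares of members were 2.05% to 3.18%. The libraries shared 57 to 174 cell barcodes pairwise, none of them among members, and a doublet caller marked 1 member, in Vehicle. Cd209a UMIs were also found in other cells, where their source, free RNA or doublets, was not tested: at least 2 were found in 0.630%, 0, 0.740% and 0.184% of T cells (at least 2 UMIs of Cd3e) of the 4 libraries, whose median depth was 5091 to 6407 UMIs. The T cells of all later comparisons also had no UMI of Cd209a or Cd79a and fewer than 2 of the C1q genes (3310, 819, 2252 and 957 cells). Their shares thus leave out T cells with a Cd209a UMI and can understate transcripts of members found in T cells.

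Most cells with 2 or more UMIs of Cd209a were not members. There were 629, 122, 512 and 138 such cells in the 4 libraries, and Siglech, a plasmacytoid dendritic cell receptor, was the most frequent reason for leaving Vehicle cells out (253 cells). Xcr1 or Clec9a left out 184, 31, 98 and 27 cells, C1q genes of macrophages left out 95, 17, 90 and 39, and the lack of Flt3 and Zbtb46 left out 189, 19, 156 and 21, where a cell could fail for several reasons. Among members the median Cd209a count was 5, 11, 7 and 9 UMIs, and the highest was 33, 72, 45 and 78. The cells that met every other limit but had 1 UMI of Cd209a numbered 33, 9, 19 and 7, and their Mgl2 level was 201, 368, 128 and 641 CPM (the gene's UMIs scaled to the summed UMIs of the cells named). The members with exactly 2 UMIs of Cd209a numbered 29, 3, 19 and 2, and their Mgl2 level was 322, 389, 135 and 695 CPM, so cells on both sides of the limit carried the lectin.

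The members carried the other markers of the label. Mgl2, which the rule did not use, stood at 384, 683, 320 and 940 CPM in members (libraries in the order above, here and below), and at 35.2, 22.5, 20.8 and 32.1 CPM in all other passing cells. H2-DMb2, a chaperone subunit of MHC class II loading, stood at 297, 243, 191 and 350 CPM in members and at 21.3 to 32.5 CPM in the others. Flt3 and Zbtb46, which the rule used, stood at 156 to 403 and at 41.5 to 58.9 CPM in members. The 10 genes with the highest weakest ratio over the other cells within the 4 libraries were Cd209a, Cd209e, Mgl2, Tnip3, Bex6, Timd4, Ppp1r14a, H2-DMb2, Clec10a and H2-Oa. They include the lectins Cd209e and Clec10a, the phosphatidylserine receptor Timd4 and a further MHC class II loading factor, H2-Oa. Clec10a, for example, stood at 239, 310, 310 and 350 CPM in members and at 20.7 to 31.1 CPM in the others.

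Against type 1 cells, defined by at least 2 UMIs of Xcr1 and Clec9a together and none of Cd209a (92, 27, 91 and 30 cells), members differed in the lineage genes of both types. Sirpa, the inhibitory receptor that marks cDC2, stood at 126, 493, 127 and 432 CPM in members and at 3.81, 21.8, 2.88 and 17.4 CPM in type 1 cells. Irf8, the type 1 lineage factor, stood at 84.7, 61.9, 69.0 and 38.2 CPM in members and at 1644, 1945, 1386 and 2516 CPM in type 1 cells. Cd209d was at 106 to 335 CPM in members and had no UMI in type 1 cells, and S100a4, a calcium-binding protein, was at 1315 to 2169 CPM against 15.6 to 130 CPM. The genes lower than in type 1 cells in all 4 libraries included Naaa, Itgae (CD103), Ifi205, Ppt1 and Cd24a. Irf4, the cDC2 lineage factor, was at 51.0, 80.9, 49.1 and 156 CPM, and it is named here after its values had been seen. Members also carried transcripts of the monocyte list (9 genes), whose summed level was 3192, 3483, 3747 and 2492 CPM against 1595 to 2335 CPM in the other cells. Its most abundant gene was Plac8, at 1086 to 1770 CPM, followed by Ccr2, the receptor that brings monocytes and cDC2 precursors into tissue, at 460, 1009, 555 and 506 CPM. Ly6c2, the classical monocyte antigen (named after its values had been seen), was at 185, 131, 260 and 39.8 CPM, and 0, 2, 1 and 2 genes of the list were at 0. The part of monocyte-derived cells among the members was not tested.

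The share of members among passing cells was lower in both OVA libraries. It was 0.599% in Vehicle (0.508 to 0.701%), 0.171% in Vehicle-OVA (0.116 to 0.245%), 0.779% in Ribavirin (0.663 to 0.910%) and 0.465% in Ribavirin-OVA (0.334 to 0.630%). Vehicle-OVA thus had 0.286 times the Vehicle share (0.187 to 0.426), and Ribavirin-OVA had 0.597 times the Ribavirin share (0.413 to 0.846). Ribavirin had 1.30 times the share of Vehicle (1.04 to 1.64), and Ribavirin-OVA 2.71 times that of Vehicle-OVA (1.65 to 4.50). In every comparison the interval left out 1, but it holds no error between mice.

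These shares moved with the other cells of the library. Neutrophils by their transcripts made up 38.2% of passing Vehicle-OVA cells and 19.8% to 27.7% in the other libraries. Leaving out of the denominator all other cells with at least 10 UMIs of S100a8 and S100a9 or any of Cxcr2 or Siglecf, markers of neutrophils and eosinophils whose UMIs were also found in other cell types, the share of members was 0.932%, 0.613%, 1.36% and 0.721% in the 4 libraries. Ribavirin-OVA then had 1.18 times the share of Vehicle-OVA (0.717 to 1.95), an interval that holds 1. Among conventional dendritic cells, which were the members, the type 1 cells and the Ccr7 or Fscn1 cells, members made up 41.8% of 368 cells, 30.3% of 99, 46.3% of 341 and 42.7% of 96, and the intervals of all 4 ratios held 1. The rule also reads differently at other depths: with each cell thinned to 2000 UMIs first, 23, 11, 38 and 12 members remained, and the ratios with OVA were 0.761 (0.335 to 1.62) and 0.829 (0.394 to 1.62).

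**Figure D1:**
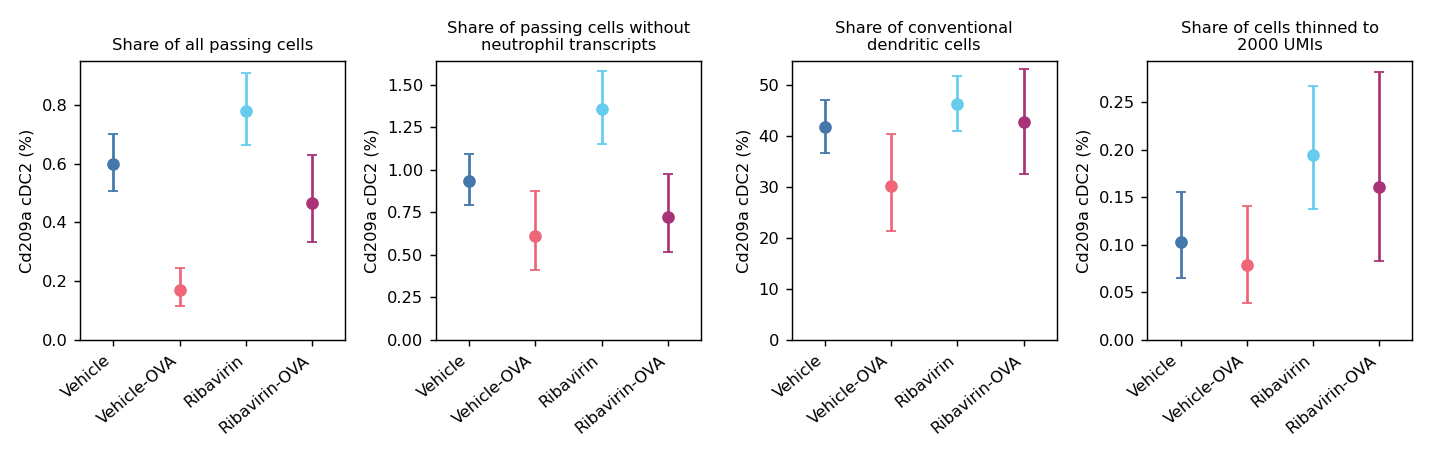
Share of Cd209a cDC2 in each library, in percent, over all passing cells, over cells left after those with neutrophil or eosinophil transcripts were taken out, over conventional dendritic cells and over cells thinned to 2000 UMIs. Points are the share and bars its exact 95% counting interval. Vehicle-OVA is the lowest library on all 4 denominators, with 0.171% of passing cells, 0.613% after the removal, 30.3% of conventional dendritic cells and 0.0787% after thinning.

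With OVA, members of both drug arms differed in the same genes more often than in opposite ones. Of 6970 genes with at least 50 UMIs in members over the 4 libraries, 1152 were past 2-fold higher in Vehicle-OVA than in Vehicle (16.5%) and 411 were past 2-fold lower (5.9%), on the log2 scale of CPM plus 1. In Ribavirin-OVA against Ribavirin 1110 genes were higher (15.9%) and 349 lower (5.01%). The pairs share no library. The same 483 genes were higher in both (6.93% of genes tested, 41.9% of the first list and 43.5% of the second) and the same 148 were lower in both (2.12% of genes tested, 36.0% and 42.4% of the lists). Only 11 genes were past 2-fold higher under vehicle and lower under ribavirin, and 17 the other way round. Across genes, which are not independent replicates, the log2 ratios of the pairs had a Pearson's r of 0.558.

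The level of all genes shifted as well. The median log2 ratio over the 6970 genes was 0.35 under vehicle and 0.38 under ribavirin, and it followed transcript length: it was -0.39 and -0.36 for genes whose transcripts had at most 1300 bases, the shortest 10%, and 0.57 and 0.63 for those of at least 6983 bases, the longest 10%. The 90 ribosomal protein genes had medians of -0.80 and -0.77. With libraries scaled by the median of gene ratios in place of total UMIs, 412 genes were higher and 794 lower under vehicle, 308 and 708 under ribavirin, and 99 and 349 in both, so higher genes were 34.2%, 30.3% and 22.1% of those past 2-fold in place of 73.7%, 76.1% and 76.6%. The CPM and the counts past 2-fold below are not corrected for this shift, so list counts are to be read against the 16.5% of all genes that were higher and the 5.9% that were lower under vehicle, and 15.9% and 5.01% under ribavirin. List medians are given less the median of all genes where they are given, and calls lost with ratios centred by transcript length are named. What the length dependence comes from was not tested.

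**Figure D2:**
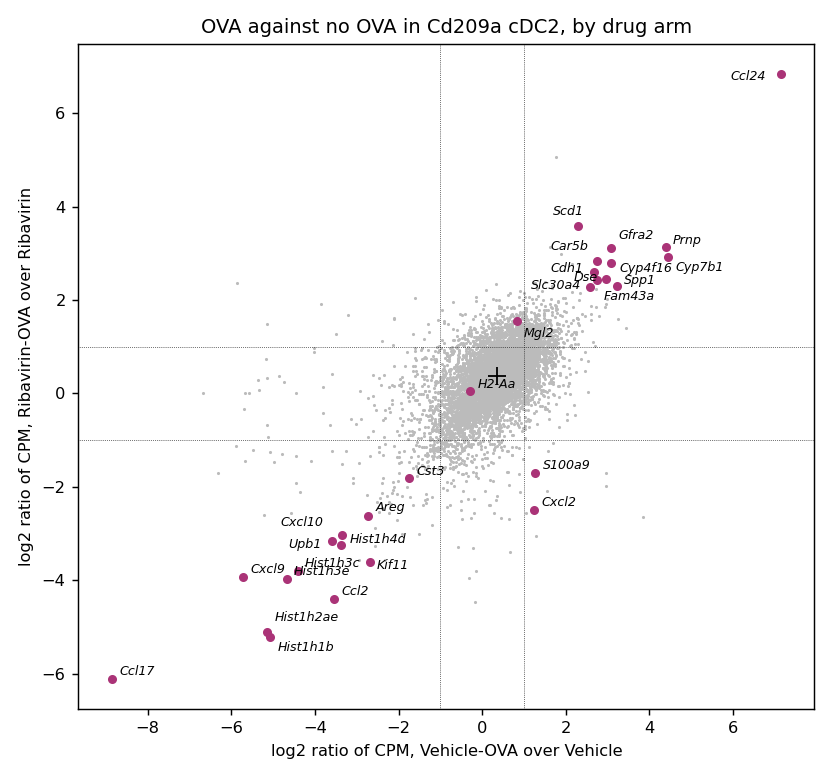
Log2 ratio of CPM (plus 1) of each of 6970 genes in Cd209a cDC2, Vehicle-OVA over Vehicle on the x axis and Ribavirin-OVA over Ribavirin on the y axis. Grey points are genes, purple points are named genes, dotted lines mark 2-fold and the cross marks the median of all genes (0.35 and 0.38). Among the named genes Ccl24 is farthest up and Ccl17 farthest down in both arms, while Cxcl2 and S100a9 go opposite ways.

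Chemokine transcripts differed with OVA in both arms. Ccl17 had 753 UMIs in 37 of 154 members of Vehicle and 506 in 34 of 158 members of Ribavirin, but 0 in the 30 members of Vehicle-OVA and 2 in 2 of the 41 members of Ribavirin-OVA. In CPM this was 462, 0, 296 and 3.32 for the 4 libraries. Ccl17 was at least 64.7-fold lower in Vehicle-OVA than in Vehicle, taking 3 UMIs in place of 0, and Ribavirin-OVA had 0.0112 times the Ribavirin level (0.00135 to 0.0407). Ccl17 was thus past 2-fold lower in both arms, as were 2.12% of genes tested. The cells that met every other limit but had 1 UMI of Cd209a had Ccl17 at 421, 0, 293 and 245 CPM. The low level of Ribavirin-OVA thus held for members and not for these 7 cells just under the Cd209a limit. A share of 0 of 30 cells allows up to 11.6% of cells with a UMI. Most members of Vehicle had no Ccl17 UMI, and the richest cell held 199 UMIs, 26.4% of the total. In Ccr7 or Fscn1 cells, the mature dendritic cells, Ccl17 was at 552, 125, 427 and 225 CPM, and in type 1 cells at 111, 87.3, 112 and 40.7 CPM. Transcripts were thus found in both classes in both OVA libraries. The lower Ccl17 level with OVA was not particular to members. It was at 39.6, 5.65, 31.5 and 7.42 CPM in all other passing cells and at 48.2, 6.52, 27.1 and 13.4 CPM in C1q macrophages. T cells had a Ccl17 UMI in 0.122% to 0.711% of cells.

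Ccl22, the partner of Ccl17 at the receptor Ccr4, was at 92.7, 2.38, 46.2 and 18.3 CPM in members of the 4 libraries. The Vehicle-OVA value was 1 UMI. In the mature cells Ccl22 stood at 808, 396, 780 and 213 CPM, above its level in members of every library. Ccl5, a T cell and eosinophil attractant, was at 165, 23.8, 132 and 28.2 CPM in members. Ccl6, a myeloid chemokine, was at 375, 162, 417 and 89.6 CPM. Ccl2, which draws monocytes through Ccr2, was at 65.7, 4.76, 55.0 and 1.66 CPM, with 2 UMIs and 1 UMI in the OVA libraries. Each of these 4 genes was past 2-fold lower in both arms, as were 2.12% of genes tested. In all other passing cells Ccl5 (1168, 225, 817 and 192 CPM) and Ccl2 (95.7, 45.9, 84.6 and 41.0 CPM) were lower with OVA too. Ccl6 was higher there with OVA (205, 873, 240 and 371 CPM), and Ccl22 was higher under ribavirin only (18.4, 11.9, 16.4 and 53.3 CPM). Of the list of type 2 and homeostatic chemokines, 8 of 12 genes were tested and 5 were past 2-fold lower in both arms (Ccl17, Ccl22, Ccl6, Ccl5 and Ccl2). The median log2 ratio of the list was -1.98 under vehicle and -1.74 under ribavirin, which less the median of all genes were -2.32 and -2.12.

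Ccl24 went the other way. It had 2 UMIs in members of Vehicle, 132 in Vehicle-OVA, 4 in Ribavirin and 229 in Ribavirin-OVA, or 1.23, 314, 2.34 and 380 CPM. Vehicle-OVA had 256 times the Vehicle level (69.5 to 2135) and Ribavirin-OVA 162 times the Ribavirin level (62.6 to 601). The transcript was not particular to members: in all other passing cells it stood at 1.23, 800, 4.53 and 468 CPM, and in C1q macrophages at 2.28, 2396, 12.6 and 1813 CPM. Members with a Ccl24 UMI numbered 1, 9, 3 and 17, and the richest cell held 60 of 132 UMIs in Vehicle-OVA and 89 of 229 in Ribavirin-OVA. T cells had a Ccl24 UMI in 10.9% of Vehicle-OVA and 9.40% of Ribavirin-OVA cells, against 30.0% and 41.5% of members. With each cell thinned to 2000 UMIs these shares were 3.58% and 3.60% of T cells and 13% and 19.7% of members, so the members lay above the T cells.

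The interferon-induced chemokines were low with OVA. Cxcl9 had 489 UMIs in Vehicle, 2 in Vehicle-OVA, 412 in Ribavirin and 9 in Ribavirin-OVA, or 300, 4.76, 241 and 14.9 CPM. The Vehicle-OVA level was 0.0159 times that of Vehicle (0.00192 to 0.0576), and the Ribavirin-OVA level was 0.0620 times that of Ribavirin (0.0281 to 0.119). The lower Cxcl9 level with OVA was not particular to members. It was 751, 119.5, 469 and 112 CPM in C1q macrophages and 273, 37.2, 154 and 46.6 CPM in all other passing cells. Type 1 cells had 288, 68.6, 323 and 320 CPM, lower under vehicle only. Cxcl10 was at 275, 26.2, 224 and 26.6 CPM, with ratios of 0.0952 (0.0472 to 0.172) and 0.118 (0.0671 to 0.195). In all other passing cells Cxcl10 was at 178, 150.5, 166 and 72.7 CPM. Both genes came from a minority of the members without OVA. Cxcl9 was found in 32 of 154 and 29 of 158 cells of Vehicle and Ribavirin, and the richest cell held 27.8% and 26.0% of its UMIs. Thinned to 2000 UMIs, Cxcl10 was found in 10.6%, 4.79%, 12.2% and 4.51% of members and in 4.66%, 4.59%, 4.93% and 3.00% of T cells, so with OVA the members were near the T cells. Ccl4, an inflammatory chemokine, was at 589, 248, 876 and 374 CPM, with log2 ratios of -1.25 and -1.23, or -0.85 and -0.87 with ratios centred by transcript length. In all other passing cells Ccl4 was at 621, 4015, 704 and 478.5 CPM, higher with OVA under vehicle and lower under ribavirin. T cells had 145, 906, 229 and 289 CPM of Ccl4, above the members in Vehicle-OVA. Of 5 tested genes of this list 3 were lower with OVA under vehicle and 5 under ribavirin, and Cxcl2, a neutrophil attractant, was at 201, 474, 472 and 83.0 CPM. Ccl3, a relative of Ccl4 that is named here after its values had been seen, was at 84.1, 131, 144 and 21.6 CPM and was past 2-fold lower under ribavirin only. In Cxcl2 1 cell of Ribavirin held 462 of 806 UMIs, and T cells had a Cxcl2 UMI in 23.0%, 93.0%, 44.7% and 33.1% of cells.

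**Figure D3:**
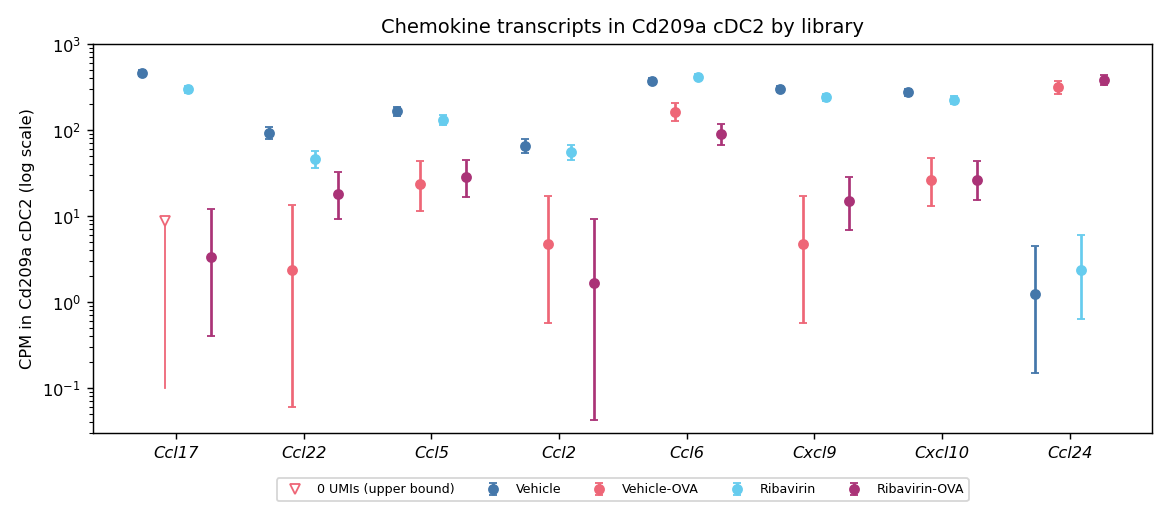
CPM of 8 chemokine transcripts in Cd209a cDC2 on a log axis, by library. Points are the level and bars its exact 95% counting interval, and the open triangle is the upper bound for the 0 UMIs of Ccl17 in Vehicle-OVA. Ccl24 is high in both OVA libraries (314 and 380 CPM), and the other 7 genes are past 2-fold lower with OVA in both arms.

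The other genes that were highest with OVA in both arms were not chemokines. By the weaker of both log2 ratios the 12 leading genes were Ccl24, Prnp, Gfra2, Cyp7b1, Cyp4f16, Car5b, Cdh1, Dse, Slc30a4, Spp1, Scd1 and Fam43a, all past 2-fold in both arms. Prnp, which encodes the prion protein, was at 9.82, 226, 18.1 and 166 CPM in the 4 libraries. It was 23.0 times higher with OVA under vehicle (13.5 to 41.9) and 9.15 times under ribavirin (6.06 to 14.2). In all other cells Prnp stood at 17.6, 138, 27.0 and 61.2 CPM, so it was higher with OVA there too. Gfra2, the receptor for the neurotrophic factor neurturin, was at 12.3, 112, 13.5 and 124 CPM, with ratios of 9.11 (5.30 to 16.2) and 9.25 (5.73 to 15.5). Type 1 cells had no UMI of it, and mature cells had 1.01, 51.9, 4.16 and 93.1 CPM, while the other passing cells together had at most 3.28 CPM.

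Cdh1, which encodes E-cadherin, an adhesion protein found on epithelium and on some dendritic cells and macrophages, was at 76.7, 493, 79.6 and 488 CPM. The OVA values were 6.42 (5.12 to 8.08) and 6.13 (4.99 to 7.57) times those without OVA. Members with a Cdh1 UMI were 42 of 154, 22 of 30, 48 of 158 and 35 of 41, and after thinning to 2000 UMIs the shares were 9.58%, 52.3%, 11.3% and 52.7%. In T cells the thinned share was 1.10% to 4.66%. In type 1 cells Cdh1 was at 6.10, 40.5, 12.25 and 5.81 CPM, and in mature cells at 4.04, 91.7, 6.24 and 18.0 CPM. It was at 3.28, 84.7, 6.02 and 74.5 CPM in C1q macrophages and at 18.9, 80.6, 34.4 and 103 CPM in all other passing cells. The higher Cdh1 level with OVA was thus not particular to members, although their level was above these classes in every library. Epcam, an epithelial adhesion protein from the same list, was at 101, 14.3, 49.7 and 46.5 CPM and did not follow Cdh1.

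Several others of the 12 genes encode enzymes and a transporter. Cyp7b1, an oxysterol hydroxylase, was at 8.59, 210, 25.7 and 202 CPM. Cyp4f16, a cytochrome of fatty acid hydroxylation, was at 30.7, 267, 40.4 and 284 CPM. Scd1, a fatty acid desaturase, was at 5.53, 30.9, 5.27 and 74.7 CPM, where the richest cell of Ribavirin-OVA held 14 of 45 UMIs. Slc30a4, a zinc exporter, was at 27.0, 188, 40.4 and 221 CPM, and Dse, an enzyme of dermatan sulfate synthesis, was at 9.82, 83.3, 11.7 and 68.1 CPM. The higher levels with OVA were not particular to members. Dse was at 45.9, 113, 37.9 and 152 CPM in C1q macrophages, above its level in members of every library. Slc30a4 was at 14.5, 87.3, 20.2 and 54.2 CPM in type 1 cells, and Scd1 at 9.46, 26.3, 10.1 and 35.5 CPM in all other passing cells. Cyp7b1 had a UMI in at most 0.355% of T cells, against 53.3% and 39.0% of members of the OVA libraries. In mature cells Cyp7b1 was at 15.1, 83.1, 30.2 and 72.1 CPM and Cyp4f16 at 13.1, 86.5, 10.4 and 90.1 CPM, so both were higher with OVA there too. Spp1 (osteopontin), at 3.68, 42.9, 5.27 and 29.9 CPM, was far below its level of 1190 and 711 CPM in the other cells of the OVA libraries, and no member had more than 4 UMIs of it. Thinned to 2000 UMIs, 9.12% and 6.05% of members of the OVA libraries had a Spp1 UMI against 10.6% and 6.35% of T cells, so the members were not above the T cells.

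Of 15 tested IL-4 and STAT6 response genes 6 were higher and 2 lower under vehicle, and 5 higher and 1 lower under ribavirin, with medians of 0.72 and 0.64, which were 0.37 and 0.27 above the median of all genes. Higher in both arms were Mrc1, Il4i1, Ccl24, Pdcd1lg2 and Cd200r1, and lower in both was Ccl17, and those higher stayed past 2-fold with ratios centred by transcript length. Higher genes also outnumbered lower ones among all genes past 2-fold. Mrc1, the mannose receptor, was at 68.1, 278, 86.0 and 289 CPM. Il4i1, a secreted phenylalanine oxidase induced by IL-4, was at 23.3, 186, 46.8 and 171 CPM, well under its 544 to 964 CPM in mature cells. Pdcd1lg2 (PD-L2), a ligand of PD-1, was at 10.4, 57.1, 7.02 and 34.9 CPM from 12 to 24 UMIs per library, and Cd200r1, an inhibitory receptor, was at 35.0, 110, 34.5 and 105 CPM. Mrc1 was in other cells too, at 76.9, 349, 59.4 and 320 CPM. Pdcd1lg2 was at 9.35, 38.65, 8.06 and 28.7 CPM in all other passing cells and at 6.645, 63.1, 5.06 and 85.9 CPM in C1q macrophages. The higher levels of these genes with OVA were thus not particular to members.

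Of 21 tested genes of the cDC2 identity list 3 were higher and 1 lower under vehicle, and 4 higher and 4 lower under ribavirin, with medians that were 0.09 above that of all genes in both arms. Cd209e, a lectin, was at 20.9, 143, 47.4 and 226 CPM, with ratios of 6.84 (4.42 to 10.8) and 4.76 (3.59 to 6.35), and it had a UMI in at most 0.122% of T cells. Cd209d was at 106, 248, 204 and 335 CPM, although 1 cell of Ribavirin-OVA held 83 of 202 UMIs. Clec10a was at 239 to 350 CPM in all 4 libraries. Of 18 tested genes for pattern recognition and C-type lectin receptors 6 were higher and 2 lower under vehicle, and 1 higher and 5 lower under ribavirin. Cd209e was the one higher in both, and Fcgr3, the activating receptor for IgG, was the one lower in both, at 110, 45.2, 129 and 39.8 CPM. Sirpa was 3.90 times higher with OVA under vehicle (3.20 to 4.75) and 3.40 times under ribavirin (2.83 to 4.09), and Kmo, an enzyme of the kynurenine pathway, was at 120, 288, 163 and 372 CPM. These were the 2 genes of the identity list past 2-fold higher in both arms, and Kmo lost the call with ratios centred by transcript length (0.79 and 0.70). No gene of that list was lower in both. The difference of Sirpa was not particular to members, as C1q macrophages had 291, 709, 292 and 732 CPM. All other passing cells had 146, 361, 125 and 282 CPM of Sirpa, and 27.4, 21.9, 20.05 and 24.6 CPM of Kmo. The cDC1 list (7 tested) and the list of migratory or mature dendritic cells (12 tested) had 0 and 3 genes higher and 2 and 1 lower under vehicle, and 1 and 2 higher and 1 and 1 lower under ribavirin.

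The most abundant antigen presentation genes were within 2-fold between libraries on the scale of CPM. H2-Aa, the alpha chain of the class II molecule I-A, was at 9046, 7446, 7902 and 8177 CPM, and H2-Ab1, its beta chain, at 9068, 6901, 8193 and 7869 CPM. H2-Eb1, the beta chain of I-E, was at 7680, 4316, 6572 and 4681 CPM. The members had a summed class II list level of 24600 to 31230 CPM, and the other cells had 5827 to 14650 CPM. Of 12 tested genes of the list 1 was past 2-fold higher in each arm and 0 lower, with medians of -0.03 in both, which less the median of all genes were -0.37 and -0.41. Of 11 tested costimulation and checkpoint ligands 1 was higher under vehicle, and 1 was higher and 1 lower under ribavirin. Cd86, the ligand of CD28, was at 168, 174, 116 and 108 CPM.

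Cst3 and Lyz2 were the genes of the lysosome list that were past 2-fold lower in both arms. Cst3 (cystatin C), an inhibitor of cathepsins and among the most abundant dendritic cell transcripts, was at 6678, 1992, 5480 and 1554 CPM. Its ratios were 0.298 (0.278 to 0.320) and 0.284 (0.265 to 0.303). The difference was not particular to members, as type 1 cells had 23140, 10670, 22280 and 12150 CPM and the other passing cells 2353, 686, 1899 and 811 CPM. Lyz2 (lysozyme) was at 1307, 488, 1563 and 299 CPM in members and was lower with OVA in the other cells as well, at 4048, 1078, 3123 and 1279 CPM. Psap (prosaposin), in contrast, was at 1030, 1828, 1105 and 1931 CPM. Of 18 tested genes of the lysosome list 2 were higher and 2 lower under vehicle, and 0 higher and 2 lower under ribavirin.

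Of 22 tested interferon-stimulated genes 1 was higher and 1 lower under vehicle, and 0 higher and 4 lower under ribavirin, with medians that were -0.25 and -0.26 less that of all genes. Isg15, a ubiquitin-like modifier, was at 142, 80.9, 132 and 61.4 CPM, and Bst2 (tetherin) at 255, 169, 292 and 136 CPM. Of 14 interferon gamma and guanylate-binding genes 0 were higher and 1 lower under vehicle, and 1 higher and 2 lower under ribavirin, with medians that were -0.74 and -0.26 less that of all genes. Gbp3, a GTPase of cell-autonomous defence, was the one lower in both, at 52.2, 19.0, 55.6 and 18.3 CPM. Psmb8, an immunoproteasome subunit, was at 822, 414, 772 and 368 CPM, log2 ratios of -0.99 and -1.06.

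Of 14 tested genes of the cell cycle list 6 were past 2-fold lower in both arms. Top2a, the topoisomerase of mitosis, was at 79.2, 0, 61.4 and 18.3 CPM, at least 11.1-fold lower with OVA under vehicle, and Stmn1 (stathmin), a microtubule regulator, was at 106, 9.52, 115 and 39.8 CPM. In the arms 1 was higher and 9 were lower under vehicle, and 0 higher and 6 lower under ribavirin, with medians that were -1.87 and -1.14 less that of all genes. Top2a, Birc5, Tyms, Stmn1, Ube2c and Tk1 were lower in both, and Pcna, a replication clamp, was at 52.8, 121, 65.5 and 116 CPM. Cells with at least 2 UMIs of Mki67 and Top2a were 18 of 154 in Vehicle (11.7%, 7.08 to 17.8%), 0 of 30 in Vehicle-OVA (0 to 11.6%), 17 of 158 in Ribavirin (10.8%, 6.39 to 16.7%) and 3 of 41 in Ribavirin-OVA (7.32%, 1.54 to 19.9%). These intervals overlap, so a difference in the share of cycling members was not detectable at this number of cells. The histone genes Hist1h2ae, Hist1h1b, Hist1h3e, Hist1h3c and Hist1h4d, which are transcribed in S phase and whose mRNAs mostly lack a poly-A tail, were among the 12 genes lowest with OVA. Hist1h1b had 184, 1, 166 and 1 UMIs, of which the richest cell of Vehicle held 86 and that of Ribavirin 81. Kif11, a mitotic motor, had 34, 1, 19 and 0 UMIs. T cells also held Hist1h1b in fewer cells with OVA, 9.18% and 9.28% without and 4.52% and 3.55% with it.

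Of the lowest 12 genes with OVA the remaining 2 were Upb1 and Areg. Areg (amphiregulin), an EGF receptor ligand of tissue repair, was at 52.8, 7.14, 25.7 and 3.32 CPM, from 3 and 2 UMIs in the OVA libraries, and 1 cell of Vehicle held 44 of 86. Upb1, an enzyme of pyrimidine breakdown, was at 11.1, 0, 22.8 and 1.66 CPM. Of 9 tested dendritic cell cytokines 3 were higher and 3 lower under vehicle, and 1 higher and 5 lower under ribavirin. Il1b was at 2483, 1690, 2165 and 890 CPM, and Il1rn, the antagonist of the IL-1 receptor, at 23.9, 114, 35.1 and 74.7 CPM. Ebi3, the subunit shared by IL-27 and IL-35, was at 37.5, 11.9, 29.8 and 13.3 CPM, so Il1rn was the one gene of the list higher in both arms (1.93 and 0.68 after centring by transcript length) and Ebi3 (-1.18 and -0.75 after centring) and Areg were the ones lower in both. The higher Il1rn level with OVA was not particular to members, as all other passing cells had 158, 2930, 275 and 341 CPM. T cells had 23.8, 482, 52.9 and 38.55 CPM of Il1rn, above the members in Vehicle-OVA.

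The receptors for type 2 cytokines and alarmins (18 tested) had 3 higher and 0 lower genes under vehicle and 2 higher and 1 lower under ribavirin. Crlf2, the receptor for the alarmin TSLP, was at 177, 97.6, 186 and 93.0 CPM. Stat5a, which signals below it, was at 30.7, 92.8, 45.0 and 108 CPM and was the gene of the list higher in both, with 1.05 and 0.70 after centring by transcript length. Of 8 chemokine receptors 2 were higher and 1 lower under vehicle, and 1 higher and 2 lower under ribavirin. Ccrl2, a chemerin-binding receptor, was lower in both, from 243, 21, 194 and 22 UMIs. Ccr9 was higher in both, but not after centring by transcript length (0.58 and 0.87). Atf3, a stress factor, was the gene of 20 immediate early and stress genes that was lower in both, at 882, 283, 943 and 398 CPM, while Fos was at 1614 to 1941 CPM in all 4 libraries. Of 8 eicosanoid pathway genes 0 were past 2-fold under vehicle and 2 were higher under ribavirin. Of 13 glycolysis genes 3 were higher under vehicle and 0 under ribavirin, and none was lower.

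Stress granules and efferocytosis were the subjects of the study in macrophages. In members, G3bp1, the scaffold of stress granules, was at 141, 286, 130 and 249 CPM, with ratios of 2.02 (1.61 to 2.53) and 1.92 (1.55 to 2.37). Tia1, another core protein, was at 34.4, 73.8, 29.2 and 71.4 CPM and was the gene past 2-fold in both arms, but with ratios centred by transcript length its log2 ratios were 0.56 and 0.72, and those of G3bp1 were 0.48 and 0.34. All 12 genes of the stress granule list were tested, 2 and 3 were higher in the arms and 0 were lower, near the share of all genes that were higher, with medians 0.31 and 0.18 above that of all genes. Of 8 tested efferocytosis receptors and partners 4 were higher and 1 lower under vehicle, and 2 higher and 1 lower under ribavirin. Timd4 was at 87.2, 321, 98.3 and 256 CPM, where 1 cell of Ribavirin-OVA held 57 of 154 UMIs. Axl, a receptor tyrosine kinase for phosphatidylserine bridges, was lower in both at 25.2, 4.76, 29.8 and 4.98 CPM, and Itgav, an integrin chain, was higher in both at 17.8, 38.1, 12.3 and 39.8 CPM, but not after centring by transcript length (0.49 and 0.99). Calr (calreticulin) was at 506, 1038, 523 and 1038 CPM.

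**Figure D4:**
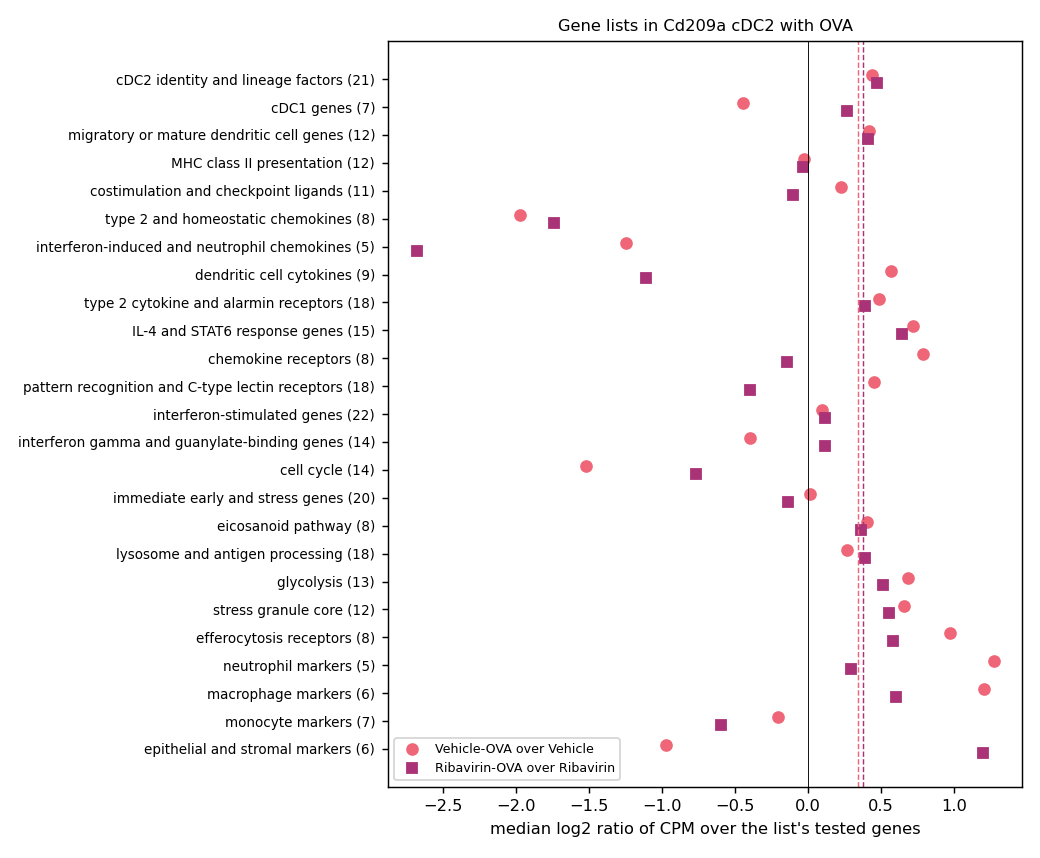
Median log2 ratio of CPM with OVA over the tested genes of each list in Cd209a cDC2, circles under vehicle and squares under ribavirin, with the number of tested genes in brackets. Dashed lines mark the median of all genes (0.35 and 0.38). The lists of type 2 and of interferon-induced chemokines lie at -1.98 and -1.25 under vehicle and at -1.74 and -2.68 under ribavirin, and lists with under 5 tested genes are not drawn.

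Transcripts of other cell types were present in members and differed between libraries. The lists below summed lower in members than in other cells, except the plasmacytoid list in Vehicle-OVA. The rule left out cells with a UMI of Cd3e, Cd79a, Cxcr2 or Siglech, or with 2 or more UMIs of the C1q genes. Low levels in members against other cells are thus in part set by the choice of members. The neutrophil list (10 genes, 5 tested) summed to 452, 890, 706 and 458 CPM in members of the 4 libraries, against 13170, 32670, 20230 and 14320 CPM in other cells, with 1 to 2 genes at 0. S100a9, the most abundant of them, was at 144, 350, 352 and 108 CPM in members, and it followed the other cells (7288, 15960, 10460 and 5022 CPM). The macrophage list (11 genes, 6 tested) summed to 505 to 817 CPM in members and 4069 to 10160 CPM in others, and Apoe, its most abundant gene outside the members, was at 73.8 to 240 CPM. The B and plasma cell list (2 tested) summed to 261 to 407 CPM, mostly Xbp1 and Jchain, and Xbp1, which dendritic cells also use, was at 131, 317, 124 and 272 CPM. The T and NK cell list (2 tested) summed to 279, 59.5, 205 and 74.7 CPM, and Cd3d was at 0 in both OVA libraries. The mast cell and basophil list (2 tested) summed to 94.2 to 131 CPM, mostly Kit. Of 6 eosinophil genes none was tested and 4, 6, 5 and 4 were at 0. The plasmacytoid list (8 genes, 3 tested) summed to 442, 762, 555 and 750 CPM in members, against 1295, 706, 1061 and 968 CPM in other cells. In members it was mostly Bst2 and Tcf4, a lineage factor of plasmacytoid cells that stood at 166, 569, 224 and 573 CPM. The epithelial and stromal list (10 genes, 6 tested) summed to 284, 569, 207 and 716 CPM, of which Cdh1 was most with OVA, and other cells had 808, 1332, 3840 and 6780 CPM. The part of these transcripts in the differences above was not tested.

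Members differed among themselves in Mgl2. A Mgl2 UMI was found in 64 of 154 members of Vehicle (41.6%, 33.7 to 49.8%), 18 of 30 of Vehicle-OVA (60.0%, 40.6 to 77.3%), 55 of 158 of Ribavirin (34.8%, 27.4 to 42.8%) and 34 of 41 of Ribavirin-OVA (82.9%, 67.9 to 92.8%). The Ribavirin-OVA share lay above both shares without OVA, and the interval of Vehicle-OVA overlapped theirs. After thinning to 2000 UMIs the shares were 29.1%, 43.1%, 21.0% and 55.6%, in the same order of libraries. In T cells the share with a Mgl2 UMI was 0.209% to 0.665%. The split into members with and without a Mgl2 UMI was made after the values had been seen, and deeper cells fall more often on the side with Mgl2, whose median depth was 11080.5, 14843, 12814 and 14512 UMIs against 8802, 12258.5, 9349 and 14039.

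The chemokines fell on different sides of this split. Ccl17 was at 860 CPM in members of Vehicle with Mgl2 and at 110 CPM in those without, and at 415 and 218 CPM in Ribavirin. Ccl24 in the OVA libraries was almost wholly in cells with Mgl2, with 130 of 132 UMIs in Vehicle-OVA and 227 of 229 in Ribavirin-OVA. Cxcl9 lay on the other side, at 78.4 CPM with Mgl2 and 496 CPM without in Vehicle, and at 100 and 333 CPM in Ribavirin. Prnp followed Ccl24 in the OVA libraries, at 334 and 27.2 CPM in Vehicle-OVA and at 192 and 39.1 CPM in Ribavirin-OVA. Cdh1 was higher with Mgl2 in all 4 libraries, at 579 and 333 CPM in Vehicle-OVA and 542 and 225 CPM in Ribavirin-OVA.

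Lyz2 and S100a4 were higher in members without Mgl2 in all 4 libraries. Lyz2 was at 774, 238, 802 and 224 CPM in cells with Mgl2 and at 1779, 950, 2062 and 665 CPM in cells without. S100a4 was at 1919, 1584, 1500 and 1244 CPM with Mgl2 and 2390, 1738, 2222 and 1662 CPM without it. Ccr2 was higher without Mgl2 in 3 libraries, at 586, 1391 and 714 CPM against 318, 803 and 312 CPM in Vehicle, Vehicle-OVA and Ribavirin, and not in Ribavirin-OVA (372 against 534 CPM). Fcgr3, which monocytes and macrophages also carry, was higher with Mgl2 in Vehicle (137 against 86.8 CPM) and Ribavirin (183 against 94.0 CPM). The low Cst3 level with OVA was found on both sides, at 8903 against 1628 CPM under vehicle and 7495 against 1566 CPM under ribavirin with Mgl2, and at 4707 against 2667 CPM and 4157 against 1496 CPM without it. Sirpa, too, was higher with OVA on both sides, at 126 and 528 CPM with Mgl2 and 127 and 428 CPM without it in Vehicle and Vehicle-OVA. Ribavirin-OVA had only 7 members without Mgl2, so its values there rest on few cells.

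**Figure D5:**
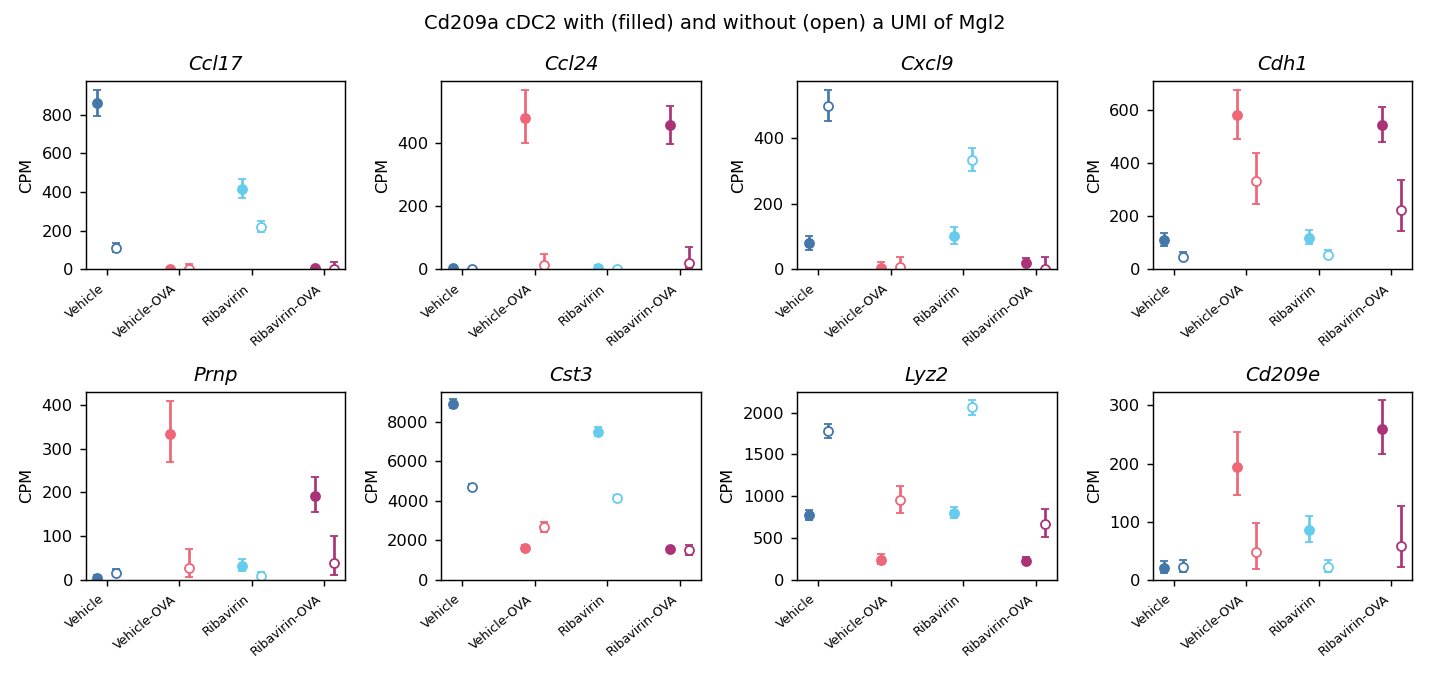
CPM of 8 genes in Cd209a cDC2 with a Mgl2 UMI (filled points) and without one (open points), by library, with exact 95% counting intervals. Ccl17 without OVA and Ccl24 with it are higher in the filled points, Cxcl9 without OVA and Lyz2 in the open points, and the differences of Cst3 and Cdh1 with OVA are seen in both.

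Ribavirin differed from Vehicle in few genes of the members. Without OVA 67 genes were past 2-fold higher (0.961%) and 78 lower (1.12%), and with OVA 405 were higher (5.81%) and 266 lower (3.82%) in Ribavirin-OVA than in Vehicle-OVA, where fewer cells were compared. The pairs share no library, and 18 genes were higher in both and 7 lower in both. The 6 leading higher genes were all nasal gland and epithelial secretory genes: Mup4, Obp1b, Obp1a, Obp2a, Lcn11 and Mup5, which encode odorant-binding and other lipocalins. Obp1a had 71, 3, 1907 and 141 UMIs in members of the 4 libraries, and 1 cell of Ribavirin held 912 of its 1907. T cells had an Obp1a UMI in 27.6%, 6.96%, 89.2% and 85.1% of cells, against 33.1%, 10.0%, 90.5% and 92.7% of members, and thinned to 2000 UMIs the shares of members lay below those of T cells in all 4 libraries. In Mup5 1 cell of Ribavirin held 708 of 817 UMIs. At equal depth the members were thus not above T cells in the share with an Obp1a UMI, a comparison not given here for the other genes of the 6. Obp1a was at 4325, 439, 18000 and 9438 CPM in all other passing cells, so its higher level with ribavirin was not particular to members. The source of the transcripts was not tested.

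The 6 leading lower genes were Id1, Gsg1, Mmp12, Csrp2, Galm and Ipcef1. Id1, an inhibitor of differentiation factors, had 53, 13, 8 and 5 UMIs, and 1 cell of Vehicle held 30 of 53. Mmp12, a macrophage elastase, was at 57.1, 107, 25.7 and 34.9 CPM, and Galm, an enzyme of galactose use, was at 27.0, 11.9, 6.44 and 4.98 CPM. These genes had 1 to 45 UMIs per library with OVA. Ccl24 in Ribavirin-OVA was 1.21 times its level in Vehicle-OVA (0.972 to 1.51), an interval that holds 1, and the same ratio of Cdh1 had an interval of 0.826 to 1.19. In bulk of a library's members, fewer cells that express a gene and less RNA per cell cannot be told apart where only summed levels are given.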

How the data were processed

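The 4 libraries were deposited as 10x Chromium 3' poly-A count matrices, in which the authors counted UMIs per gene and cell. Per the submitters' processing notes, Cell Ranger 5.0.0 and mm10 were named, and the deposited counts were unnormalized. Of 27998 listed genes, 121 shared a symbol with another. Cells were kept at 500 or more UMIs, 200 or more genes and under 10% mitochondrial UMIs, and members were then chosen by the raw counts given above. Members' UMIs were summed per library and scaled to CPM over all UMIs of those members. Log2 ratios used a pseudocount of 1 CPM over genes with at least 50 UMIs in members, and past 2-fold means a log2 ratio of at least 1 or at most -1. Library totals were 91742940 to 171873110 UMIs. Shares had exact Clopper-Pearson, CPM exact Poisson and ratios exact conditional binomial 95% intervals, and a count of 0 was set to 3 UMIs for a bound. Groups came from the labels, with 1 library each, so no test was run. Thinned values left each cell at 2000 UMIs and omitted shallower cells. Scrublet (scanpy 1.11.5) marked 0.624% to 4.99% of passing cells as doublets, and none was removed. Named genes were the 12 highest and 12 lowest with OVA by the weaker ratio of both arms, the 6 of each kind for ribavirin, up to 4 of the most abundant in each of 30 lists with those past 2-fold alike in both arms, the markers and rule genes, and the 10 of each kind against other cells and against type 1 cells. Of 445 list genes 437 were found, and 8 were not analysed here. Some genes that the rule names are not reported here. The members, lists and rules were chosen with earlier results of these data known. Alternatives changed the cell limits, the Cd209a, Flt3, Zbtb46 and C1q limits, the depth, the scaling, the pseudocount and the gene minimum. The scripts were tested on simulated data. Python 3.11.15, numpy 2.4.6, scipy 1.17.1, pandas 2.3.3 and matplotlib 3.10.9 were used.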

Additional observations from a re-analysis of the deposited data

Results flagged for a closer look

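A few genes went opposite ways in members of both arms of the study, by log2 ratios past 2-fold whose counting intervals left out no difference. These differences between the arms were not tested, since each group was 1 library.

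Cxcl2, a neutrophil attractant, had a log2 ratio with OVA of 1.23 under vehicle and of -2.49 under ribavirin. With ribavirin it was higher without OVA (1.23) and lower with OVA (-2.50). The levels were 201, 474, 472 and 83.0 CPM (Vehicle, then Vehicle-OVA, Ribavirin and Ribavirin-OVA, also below), and 1 cell of Ribavirin held 462 of 806 UMIs. The calprotectin genes S100a8 and S100a9, which neutrophils express at high levels, had the same pattern. S100a8 had log2 ratios of 1.58 and -1.23 with OVA under vehicle and ribavirin, and of 1.06 and -1.75 with ribavirin without and with OVA. S100a9 had log2 ratios of 1.27 and -1.70 with OVA, and of 1.28 and -1.69 with ribavirin. A S100a9 UMI was found in 70.8%, 100%, 84.8% and 82.9% of members and in 59.4%, 92.5%, 80.9% and 58.8% of T cells, and the part of free neutrophil RNA in these values was not tested.

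Ltf (lactoferrin) had 125, 7, 49 and 36 UMIs in members, of which 1 cell of Vehicle held 112. Its log2 ratios were -2.14 and 1.03 with OVA and -1.39 and 1.78 with ribavirin. Epcam had 164, 6, 85 and 28 UMIs, of which 1 cell of Vehicle held 43, and its log2 ratios with ribavirin were -1.0 without OVA and 1.64 with it.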

How the results depend on the processing

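No paired analysis was possible because the groups shared fewer than 2 replicate numbers and no test was run, and with 1 library per group no replicate could be left out. Over the 13 alternatives that can move a ratio, 2725 of 2737 log2 ratios of named genes past 2-fold kept their direction. The share of members as a log2 ratio, -1.80 for Vehicle-OVA over Vehicle, was -0.39 with cells thinned to 2000 UMIs, -0.60 without neutrophils and -0.47 among conventional dendritic cells. Among conventional dendritic cells it was -0.12 for Ribavirin-OVA over Ribavirin and 0.50 for Ribavirin-OVA over Vehicle-OVA, which was 0.23 without neutrophils, and Ribavirin over Vehicle was 0.91 with thinning. The counts of genes past 2-fold (1563 and 1459 with OVA, 145 and 671 with ribavirin, 483 higher and 148 lower with OVA in both arms) were 614 and 550 with OVA and 356 for Ribavirin-OVA against Vehicle-OVA with thinning, and 138 and 76 in both arms. With no gene minimum they were 4535, 3852, 1734, 3387, 787 and 531, and at 200 UMIs 522, 502, 30, 90, 172 and 76. A pseudocount of 5 CPM gave 79 and 430 with ribavirin and 309 higher in both arms. Scaling by the median of ratios gave 99 higher and 349 lower in both arms, and centring by transcript length gave 1003 and 825 with OVA and 100 higher in both. Named values past 2-fold numbered 221, 129 with thinning (83 of them among the 221) and 142 at 200 UMIs. Thinning turned Cd209d (-0.30) and Ccr2 (-0.14) in Vehicle-OVA over Vehicle and Tnfsf9 (0.20) in Ribavirin-OVA over Ribavirin. A mitochondrial limit of 5% turned Ltf with OVA under vehicle (0.94) and with ribavirin (1.59), which was 0.41 as a mean over single cells. A C1q limit of 5 UMIs turned Axl under ribavirin (0.045). Without the demand for Flt3 or Zbtb46, S100a8 (-0.19) and S100a9 (-0.045) in Ribavirin over Vehicle turned. With 1 UMI of Cd209a allowed, Id1 in Ribavirin over Vehicle (0.078) and Ccl2 (0.074) and Itgae (-0.53) in Ribavirin-OVA over Vehicle-OVA turned. The cause of these changes was not tested. The 30 and 41 members with OVA limit what can be seen in genes of few UMIs, and no value holds the spread between mice.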
